A study of Mus musculus with 76 samples.

Results

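The step from induced DN4 to induced DP thymocytes was described from 3 libraries of induced double positive cells (iDP) and 4 libraries of induced phase 4 double negative cells (iDN4). These were all the libraries that the labels give to these groups, 7 of 76 in the series. Every library was made from 1000 cells sorted from C57BL/6 mice. For both induced groups, pro/pre-B cells were taken from bone marrow, infected in culture with a virus carrying Hoxb5, a homeobox transcription factor of hematopoietic stem cells, sorted for transduction and given to recipients that had received sublethal irradiation. The iDP and iDN4 cells were then sorted from the thymus of such recipients. The same step in cells that were not induced was taken from 4 natural DP and 3 natural DN4 libraries of the C57BL/6 thymus. Nothing in the labels says that replicate libraries stem from separate recipients or animals, so p-values measure the spread between libraries, which may be technical. The recipients, irradiated below the lethal dose, may keep thymocytes of their own, and the labels give no mark by which donor cells were told apart from them. Whether the natural cells came from mice that had been irradiated is not given there either.

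In the thymus, a precursor first rearranges its T cell receptor beta gene, and a cell whose beta chain pairs with pre-T alpha divides several times as it passes through the DN4 stage. It then puts both coreceptors, CD4 and CD8, on its surface, leaves the cell cycle, and reopens the recombinase to rearrange the alpha gene. This double positive stage is the one at which the finished receptor is tested against self peptides.

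Double negative and double positive cells are named for the coreceptors at their surface, so coreceptor RNA checks the sort and is no separate result. Of the genes taken to mark the double positive stage, Cd4, Cd8a, Cd8b1, Rag1, Rag2, Ccr9 and Arpp21 rose in iDP. The call of Arpp21 (adjusted p = 0.042) was lost under 10 alternatives, with each iDP or iDN4 library left out among them. In iDN4, Cd4 was near 1 FPKM (fragments normalized for transcript length and library size) and Cd8a was below 10 FPKM, while Cd8b1 was at 36.9, 28, 46.6 and 49.3 FPKM. The genes of the 2 surface proteins that define DN4 by their absence were low there, with Il2ra at 3.89, 6.35, 5.82 and 4.5 FPKM and Cd44 at 0.307, 1, 0 and 0.893 FPKM. Ptcra, the pre-T alpha chain, had 5.42, 23.9 and 16.4 FPKM in iDP, against 33.8, 28.6, 31.3 and 20.6 FPKM in iDN4. One value of iDP lay above the lowest of iDN4, and the difference did not pass (adjusted p = 0.121).

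The deposited table holds FPKM and no read counts, and from the spacing of the lowest values 1 FPKM over 1 kilobase corresponded to 6.02 to 9.42 fragments in iDP libraries and 5.21 to 6.45 in iDN4 libraries. The same estimate gave 3.35 to 3.86 fragments in natural DP libraries and 3.55 to 3.91 in natural DN4 libraries, below all induced ones. In iDP, 10336 ± 244 genes reached 1 FPKM, against 10494 ± 36.9 in iDN4 (SD, n = 3 and 4), and an exact permutation test over the 7 libraries gave p = 0.286 (two-sided). Mitochondrially encoded genes held 13.6% ± 1.68 of all FPKM in iDP and 10.7% ± 0.298 in iDN4, without overlap (SD, n = 3 and 4, exact permutation p = 0.0286, the smallest that 35 placements allow). The summed FPKM of a library was 667660 to 765219 in iDP and 830339 to 874348 in iDN4, also without overlap. Libraries of iDP correlated with each other at 0.937 to 0.944 across genes, and those of iDN4 at 0.968 to 0.976. Natural DP libraries correlated at 0.911 to 0.918 and natural DN4 libraries at 0.968 to 0.971. Hoxb5, the transduced gene, had 1.98, 0.939 and 0.792 FPKM in iDP libraries, against 0.104, 0.117, 0.211 and 0.193 FPKM in iDN4 libraries. It rose in iDP by 0.92 ± 0.17 (SE, limma adjusted p = 2.82e-05) on the log2(FPKM + 1) scale, without overlap, and the RNA of the virus and of the cell's own gene cannot be told apart in these values. In natural cells Hoxb5 was listed at 0 in 3 of 4 DP libraries, at 0.0891 FPKM in the other one, and at 0 in all 3 DN4 libraries. The induced libraries carried Xist, expressed in female cells, at 8.66, 7.85 and 14.3 FPKM in iDP, against 4.21, 5.77, 9.72 and 10.4 FPKM in iDN4. Low Y-linked RNA was also present in 2 of the 3 iDP libraries, with Eif2s3y at 0, 5.47 and 1.29 FPKM in iDP, against 0, 0, 0 and 0 FPKM in iDN4 and Ddx3y at 0, 0.323 and 0.767 FPKM in iDP, against 0, 0, 0 and 0 FPKM in iDN4. Its part in the differences between iDP and iDN4 was not tested. The natural libraries carried Ddx3y at 20.2, 24.6, 32.5 and 23 FPKM in DP, against 9.29, 9.58 and 7.82 FPKM in DN4. Sex and the source of the cells therefore cannot be told apart wherever induced and natural steps are compared, whereas none of 5 sex-linked genes was called between iDP and iDN4 (1 with an unadjusted p under 0.05).

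For the SE and p of limma's test, spread was estimated over 75 libraries of 24 groups, not over iDP and iDN4 alone. The fold changes below are log2 differences of iDP over iDN4 on the log2(FPKM + 1) scale, which understates the change of low genes, and a gene was said to rise or fall where limma's test, adjusted over 17416 genes, gave p under 0.05. By this rule 3407 genes changed, 19.6% of those tested. Of them 1603 rose (9.2% of genes tested) and 1804 fell (10.4%), so 47.1% of the changed genes rose. With every library scaled to an equal total, the split was 2275 risen and 1323 fallen, or 63.2% risen. With that scaling the median log2 fold change of the 8076 genes averaging 5 FPKM or more was 0.21, against -0.01 in the deposited values. In the natural step from DN4 to DP, 4288 genes changed (24.6%), 2055 upward (11.8%) and 2233 downward (12.8%). Each group below is a list of genes with a known role, whose members are counted against these shares.

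Of the genes named by rule, the coreceptor genes had the 3 highest fold changes. Cd4 had 168, 144 and 144 FPKM in iDP libraries, against 0.651, 1.31, 0.996 and 0.806 FPKM in iDN4 libraries. Cd8a had 878, 786 and 743 FPKM in iDP, against 7.23, 8.35, 7.75 and 9.78 FPKM in iDN4. All 3 iDP libraries lay far above all 4 iDN4 libraries for both genes, with log2 fold changes of 6.31 ± 0.22 (SE, limma adjusted p = 1.73e-30) for Cd4 and 6.44 ± 0.33 (SE, limma adjusted p = 3.26e-23) for Cd8a. Cd8b1, the beta chain of CD8, rose by 5.20 ± 0.39 (SE, limma adjusted p = 2.95e-16), with 1688, 1735 and 1116 FPKM in iDP, against 36.9, 28, 46.6 and 49.3 FPKM in iDN4.

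Of 10 genes of the recombination machinery, 6 rose and 1 fell. Rag1, a subunit of the nuclease that cuts antigen receptor genes, had 181, 274 and 314 FPKM in iDP libraries, against 31.8, 28.9, 35.6 and 34 FPKM in iDN4 libraries. Its partner Rag2 had 159, 178 and 119.8 FPKM in iDP, against 22.6, 20.6, 11.2 and 23.4 FPKM in iDN4. The 2 groups did not overlap for either gene, and the log2 fold changes were 2.90 ± 0.29 (SE, limma adjusted p = 9.30e-12) for Rag1 and 2.94 ± 0.39 (SE, limma adjusted p = 1.84e-08) for Rag2. Dntt, the polymerase that adds untemplated bases at the joints, had 1692, 1710 and 1479 FPKM in iDP, against 921, 975, 882 and 927 FPKM in iDN4, a log2 fold change of 0.81 ± 0.15 (SE, limma adjusted p = 2.33e-05). Of the repair genes that close the breaks, Nhej1, Dclre1c (Artemis) and Lig4 rose by 2.21 ± 0.70, 1.41 ± 0.48 and 1.05 ± 0.33 on the log2 scale (SE), with adjusted p of 0.0163, 0.0286 and 0.0143. All 3 of these calls were lost with a pseudocount of 0.1 and without replicate 1 of iDP, leaving 3 of the 10 genes called higher. Xrcc5, the large Ku subunit, fell, with 7.22, 13.3 and 8.01 FPKM in iDP, against 30.0, 20.2, 25.1 and 18.8 FPKM in iDN4, and its call was lost under 5 alternatives, namely a pseudocount of 0.1, equal totals, and without replicate 1 of iDN4, replicate 1 of iDP or replicate 3 of iDP (adjusted p of 0.0613 to 0.0973). Xrcc6, its partner, had 331, 436 and 315 FPKM in iDP, against 321, 316, 324 and 307 FPKM in iDN4 and did not pass (adjusted p = 0.605).

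Of 22 genes known for the double positive stage, 19 rose and none fell, with a median log2 fold change of 1.70 against 0 over all genes tested. Bcl2l1, which encodes the survival protein Bcl-xL, had 56.7, 52 and 72.8 FPKM in iDP libraries, against 13.7, 10.3, 10.3 and 9.46 FPKM in iDN4 libraries. The groups stood apart, with a log2 fold change of 2.36 ± 0.36 (SE, limma adjusted p = 5.86e-07). Others of the list that rose were Plxnd1, a semaphorin receptor (3.12), Ets2, a transcription factor (2.67), Ccr9, the receptor for the thymic chemokine CCL25 (2.30), Slamf1 (2.24), Cd1d1, which presents lipids to natural killer T cells (1.81), and the chromatin organizer Satb1 (1.69). The 3 members that did not pass were Cd2, Cd3e and Tox. Between 13 and 20 members rose under the alternatives tried, and in the natural step 20 of the 22 rose.

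**Figure D1:**
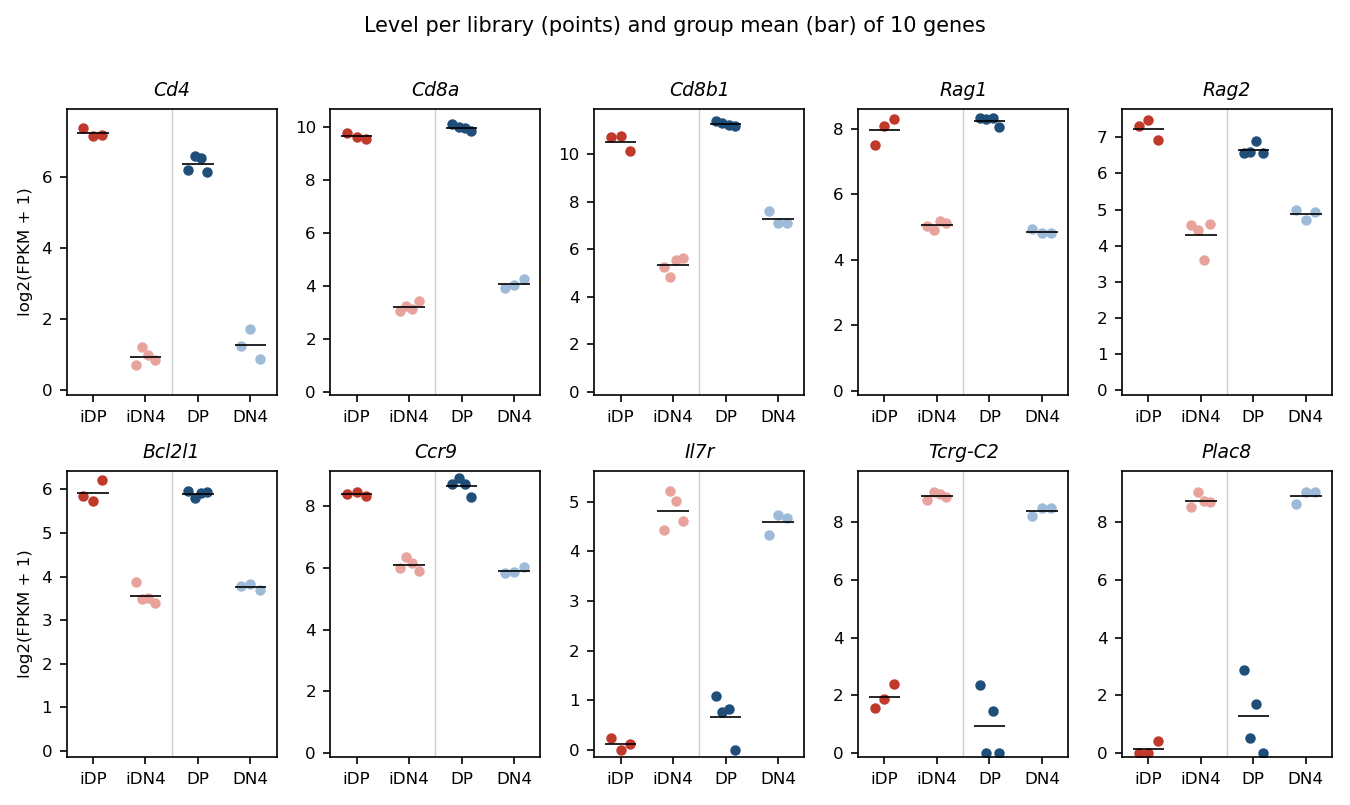
FPKM per library, as log2(FPKM + 1) on the vertical axis, of 10 genes in iDP, iDN4, natural DP and natural DN4; points are libraries and bars are group means. The coreceptor, recombinase and double positive stage genes are higher in iDP than in iDN4, with Cd4 at 144 to 168 FPKM in iDP and 0.651 to 1.31 FPKM in iDN4, while Il7r, Tcrg-C2 and Plac8 show the opposite order.

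The receptor chains differed by type. The alpha constant gene Trac had 128, 128 and 90.4 FPKM in iDP libraries, against 43.5, 37.4, 21.9 and 21.4 FPKM in iDN4 libraries, a log2 fold change of 1.91 ± 0.46 (SE, limma adjusted p = 0.00136) without overlap. The beta constant gene Trbc1 was at 2964, 2485 and 2308 FPKM in iDP and 1139, 1204, 1159 and 1322 FPKM in iDN4, and rose by 1.09 ± 0.22 (SE, limma adjusted p = 9.96e-05). Trbc2, which is nearly identical to it and may share its reads, had a log2 difference of 0.78 ± 0.30 and did not pass (adjusted p = 0.0562). The gamma constant genes went the other way. Tcrg-C2 had 1.95, 2.67 and 4.21 FPKM in iDP libraries, against 439.7, 537, 506 and 467 FPKM in iDN4 libraries, a log2 fold change of -6.99 ± 0.47 (SE, limma adjusted p = 9.84e-18). Tcrg-C1 and Tcrg-C4 fell by 5.16 and 5.56 on the log2 scale, and these 3 genes are close copies among which reads may be split. Of the CD3 and zeta chains that carry the receptor's signal, Cd3d and Cd247 rose by 0.77 and 0.83, while Cd3g had 703, 572 and 619.5 FPKM in iDP, against 568, 540.1, 617 and 746 FPKM in iDN4 and did not pass (adjusted p = 1). With a pseudocount of 0.1, none of the 4 rises among these 11 genes was called, and the adjusted p was 0.106 for Trac and 0.0864 for Trbc1.

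The variable segments are described per library, with no test. Summed over 20 Trbv segments, iDP libraries held 6273, 7394 and 5270 FPKM and iDN4 libraries 3720, 3906, 3243 and 3466 FPKM, and 18 or 19 of the 20 segments were above 0 in each of these 7 libraries. The summed level of the 7 gamma segments was 10.5, 4.73 and 13.2 FPKM in iDP, against 643.8, 724.2, 630.2 and 607 FPKM in iDN4, where Trgv2 led in all 4 libraries. For the alpha segments the groups overlapped. Summed over 33 Trav segments, iDP held 29.1, 33.4 and 45.0 FPKM and iDN4 held 56.8, 44.7, 30.1 and 16.0 FPKM. What differed was the leading segment: Trav15-2-dv6-2 led in all 4 iDN4 libraries, and Trav16n, Trav16 and Trav21-dv12 led in 1 iDP library each. By their names, Trav15-2-dv6-2 and Trav21-dv12 can both also be used by delta chains. Trav15-2-dv6-2 also led in every natural DN4 library, and Trav21-dv12 in replicates 2 and 4 of natural DP. Natural DP libraries had Trav sums of 91.0 to 329.4 FPKM, all above the iDP sums, against 27.1 to 39.1 FPKM in natural DN4. Joining segments (Traj) were above 0 in 2 of 3 iDP libraries and in 0 of 4 iDN4 libraries. Such segments are short, so that a few fragments give a large FPKM, and single values are uncertain.

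**Figure D2:**
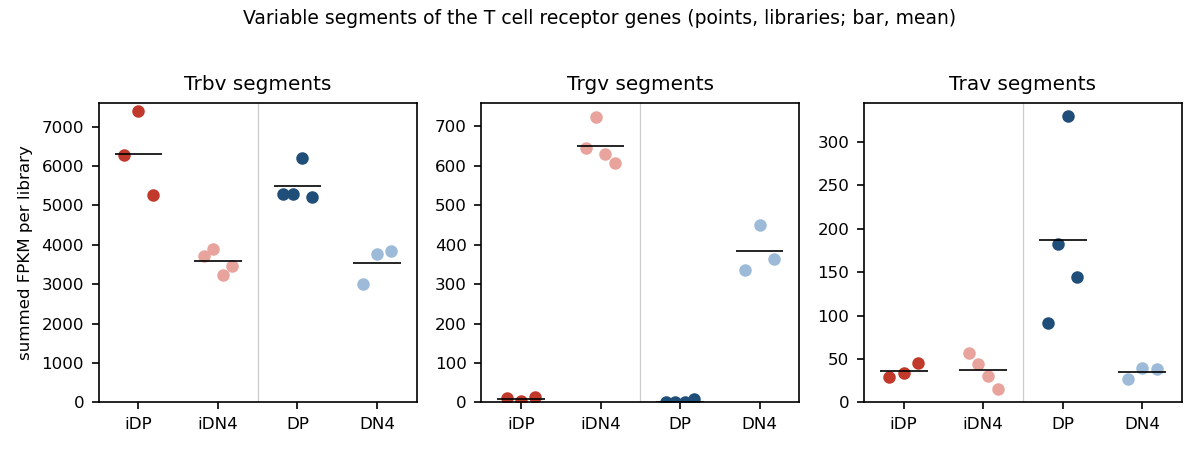
Summed FPKM per library (vertical axis, from 0) of the beta, gamma and alpha variable segments in iDP, iDN4, natural DP and natural DN4; points are libraries and bars are means. Beta sums are higher in iDP (5270 to 7394 FPKM) than in iDN4 (3243 to 3906 FPKM), gamma sums are near 0 in both double positive groups, and alpha sums stand higher in natural DP only.

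Other genes that mark gamma delta and innate T cells fell as well. Of the 12 tested members of this list 8 fell and 1 rose, with a median log2 fold change of -3.68 against 0 over all genes, and the 8 falls were called under every alternative tried. Cd163l1, a scavenger receptor of these cells, had 0.0419, 0.0443 and 0 FPKM in iDP libraries, against 51.3, 38.2, 67 and 45 FPKM in iDN4 libraries, and Sox13, a transcription factor of gamma delta T cells, had 0.319, 0.387 and 0.158 FPKM in iDP, against 13.9, 13.8, 15.4 and 9.33 FPKM in iDN4. Neither gene's groups overlapped, and both fell, by 5.61 and 3.43 on the log2 scale. Blk, a kinase of B cells and of gamma delta T cells, and Maf fell by 3.92 and 3.23. The summed level of the list was 203.5 to 304.8 FPKM in iDP and 1146 to 1378 FPKM in iDN4, while Il23r was listed at 0 in all 7 libraries and Zbtb16 in every iDP library. Of 17 natural killer and cytotoxic genes 4 fell (Nkg7, Ctsw, Gzma and Il2rb) and 13 were not called, with a median log2 fold change of -0.12. Their summed level was 212.7 to 262.4 FPKM in iDP and 1232 to 1791 FPKM in iDN4. Most of that sum was Gzma, a granule protease, at 241, 259 and 209.5 FPKM in iDP and 1165, 1301, 1712 and 1432 FPKM in iDN4. In sorted bulk samples, fewer cells of a type and less RNA per cell cannot be told apart, and how far such cells in the iDN4 sort bear on other falls was not tested. In the natural step 8 members of the gamma delta list fell too, and its sum was 375.1 to 487.1 FPKM in DP and 849.8 to 1066 FPKM in DN4.

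B lineage genes of the cells of origin were mostly at or near 0 in both induced groups. Pax5 was listed at 0 in all 7 libraries, and Ebf1 reached 0.0381 FPKM in 1 iDP library. Exceptions included Rag1 and Cd79b. The highest member was Ighm, the mu heavy chain gene, with 951, 1017 and 676 FPKM in iDP libraries, against 525, 561, 583 and 499.6 FPKM in iDN4 libraries. The groups did not overlap, but its difference did not pass (adjusted p = 0.0954), and no Ighv segment was above 0 in any of the 7 libraries. Natural DP and DN4 also held Ighm, at 588, 455, 651 and 527 FPKM in DP, against 477, 469.8 and 447 FPKM in DN4. Of the 21 B lineage genes tested, Rag1, Cd79b and Ms4a1 rose and Blk fell. Cd79b, a signal chain of the B cell receptor, had 95.1, 58.4 and 52.3 FPKM in iDP, against 22.9, 28.7, 19.4 and 25.6 FPKM in iDN4, and its summed list without Rag1 was 746 to 1086 FPKM in iDP and 556.6 to 637.8 FPKM in iDN4, of which Ighm was the most. The call of Ms4a1 (CD20) came from 1 library, at 0, 5.08 and 0 FPKM in iDP, and without replicate 2 of iDP its adjusted p was 1. No myeloid or erythroid gene passed limma's test (1 and 1 had an unadjusted p under 0.05), and those lists summed to at most 6.03 and 2.10 FPKM in iDP and 12.6 and 2.69 FPKM in iDN4.

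Genes that carry the signal of the T cell receptor rose. Of 35 tested, 21 were higher in iDP and none was lower, with a median log2 fold change of 0.90, and 17 to 24 were called under the alternatives. Lck, the kinase bound to the coreceptors, had 1814, 1645 and 1454 FPKM in iDP libraries, against 789, 750.4, 718 and 752 FPKM in iDN4 libraries. Themis, an adaptor needed for positive selection, had 148, 202 and 177 FPKM in iDP, against 55.7, 49.7, 43.5 and 44.5 FPKM in iDN4. Both stood apart between the groups, and rose by 1.12 ± 0.19 (SE, limma adjusted p = 7.13e-06) and 1.84 ± 0.19 (SE, limma adjusted p = 1.44e-11). The inhibitory surface proteins Cd5 and Cd6 rose by 1.96 ± 0.31 and 2.06 ± 0.24 (SE), and their partners in the signal Lat, Lcp2 and Plcg1 rose by 0.90, 1.18 and 1.00. Zap70, the kinase that binds the receptor's zeta chain, had 149, 202 and 120.4 FPKM in iDP, against 105, 121, 118 and 116 FPKM in iDN4. These values overlapped, and the gene did not pass (adjusted p = 0.365).

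Transcription factors of the T lineage moved in both directions. Of 39 tested, 15 rose and 4 fell. Bcl11b, which holds cells in the T lineage, had 131, 104 and 70.4 FPKM in iDP libraries, against 43.4, 45.8, 56.7 and 63.7 FPKM in iDN4 libraries, and Tcf7 (TCF-1) had 1959, 2126 and 1815 FPKM in iDP, against 1265, 1234, 1188 and 1119 FPKM in iDN4. The groups did not overlap for either, and the rises were 0.92 ± 0.19 (SE, limma adjusted p = 1.46e-04) and 0.71 ± 0.16 (SE, limma adjusted p = 4.17e-04). Tcf7 was no longer called with a pseudocount of 0.1 (adjusted p = 0.291). Myb, Foxp1 and Ikzf3 (Aiolos) rose by 1.26, 1.08 and 1.15. Runx3, a repressor of Cd4, fell, with 4.08, 1.33 and 1.79 FPKM in iDP, against 11.3, 11.3, 14.3 and 11.5 FPKM in iDN4. Lef1, a relative of Tcf7, also fell, with a log2 fold change of -1.26 ± 0.29 (SE, limma adjusted p = 7.78e-04) and 21.2, 9.68 and 17.2 FPKM in iDP, against 44.1, 50.9, 42 and 22.4 FPKM in iDN4. Rora fell most of the 4, with 0, 0.143 and 0 FPKM in iDP, against 3.29, 7.38, 17.9 and 6.23 FPKM in iDN4. Gata3 (60.2, 66.1 and 39.9 FPKM in iDP, against 54.3, 61.5, 75 and 75 FPKM in iDN4) and Runx1 (28.8, 22.2 and 25.9 FPKM in iDP, against 21.3, 17.1, 16.6 and 20.1 FPKM in iDN4) did not pass. Of 20 genes of the Notch pathway and pre-T stage, 2 rose and 3 fell, a share near that of all genes tested. Notch1, the receptor itself, was one that fell, with 10.8, 13.2 and 16.4 FPKM in iDP, against 25.8, 24.3, 25.4 and 24.1 FPKM in iDN4 and a log2 fold change of -0.86 ± 0.21 (SE, limma adjusted p = 0.00177). Its target Hes1 had 0, 0 and 1.68 FPKM in iDP, against 0.433, 2.07, 1.87 and 4.84 FPKM in iDN4, which overlap, and did not pass (adjusted p = 0.0585).

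The cell cycle genes split by phase. Of 44 genes of DNA replication, 35 fell and none rose, with a median log2 fold change of -1.11. Mcm6, a subunit of the helicase that opens DNA ahead of the fork, had 143, 154 and 122 FPKM in iDP libraries, against 455, 469, 423 and 424 FPKM in iDN4 libraries. Mcm5, another subunit, had 123, 84.1 and 90.7 FPKM in iDP, against 318, 305, 290.2 and 269 FPKM in iDN4. For both genes every iDP library was below every iDN4 library, with log2 fold changes of -1.66 ± 0.15 (SE, limma adjusted p = 1.30e-13) and -1.58 ± 0.16 (SE, limma adjusted p = 6.51e-12). Cdc6, which loads that helicase, fell by 1.70 ± 0.41 (SE, limma adjusted p = 0.00129), with 15.7, 9.74 and 12.7 FPKM in iDP, against 32.2, 56.5, 46.3 and 39.3 FPKM in iDN4. Pold2 and Pole2, subunits of the replicative polymerases, fell by 1.90 and 1.83, and Pcna, the sliding clamp, fell by 0.95, with 979.7, 1007 and 1279 FPKM in iDP, against 2155, 2038, 2143 and 2043 FPKM in iDN4. Pcna was not called under quantile normalization (-0.44, limma adjusted p = 0.151), nor was Cdc6 with a pseudocount of 0.1 (limma adjusted p = 0.0561). Between 29 and 40 of the 44 genes fell under the alternatives, and none rose under any of them. In the natural step 32 fell and none rose.

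Few genes of mitosis passed. Of 41 tested, 3 rose, none fell, and the median log2 fold change was 0.22. Top2a, the topoisomerase that untangles chromosomes, had 482, 510.3 and 582 FPKM in iDP libraries, against 524, 438, 445 and 449.5 FPKM in iDN4 libraries. Cdk1, the kinase that starts mitosis, had 150.1, 141 and 118 FPKM in iDP, against 144, 162, 139 and 102 FPKM in iDN4, and Mki67, the source of the Ki-67 antigen, had 58.6, 57.2 and 61.1 FPKM in iDP, against 60.6, 53.2, 46.8 and 50.8 FPKM in iDN4. Values of the 2 groups overlapped in Top2a, Cdk1 and Mki67, whose adjusted p were 0.936, 1 and 0.876. Their log2 differences were 0.18 ± 0.37, 0.01 ± 0.36 and 0.16 ± 0.27 (SE). Cdc25b, the phosphatase that activates Cdk1, rose by 1.40 ± 0.35 (SE, limma adjusted p = 0.00198). Cenpf and Cenpe, proteins of the kinetochore, rose by 1.48 ± 0.50 (SE, limma adjusted p = 0.0272) and 0.65 ± 0.24 (SE, limma adjusted p = 0.049). The groups overlapped for Cenpf and Cenpe. The count depended on the setting: it was 1 with a pseudocount of 0.1 and without replicate 2 or 3 of either group, and 6 with equal totals or with the 2 groups fitted alone. In the natural step 9 rose and 1 fell.

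The promoters of these 2 gene groups are shown because replication genes are known targets of E2F factors, and mitosis genes of complexes that bind a CCAAT box with a CHR element. The sequences come from RefSeq promoters of GRCm38.p6, a later build than the one the values were made with, and end at the base before the annotated start. Capitals mark TTTCGCGC, TTTGGCGC or TTTCCCGC (E2F type), CCAAT, and TTTGAA or TTCGAA (CHR type), each on either strand. Neighbouring matches may overlap, as in Mcm5 and Mcm6. Where a gene has several annotated promoters, the one with most matches of its group's motif type is shown. Every gene shown has such matches, so these promoters need not be typical of the groups. Each window holds the 170 bases before the start, 5′ to 3′ on the gene's strand. They are Mcm5 (chr8:75109339-75109508, plus strand), Mcm6 (chr1:128359706-128359875, minus), Mcm7 (chr5:138171884-138172053, minus), Cdc6 (chr11:98907981-98908150, plus), Cdk1 (chr10:69352913-69353082, minus) and Top2a (chr11:99024190-99024359, minus).
Mcm5: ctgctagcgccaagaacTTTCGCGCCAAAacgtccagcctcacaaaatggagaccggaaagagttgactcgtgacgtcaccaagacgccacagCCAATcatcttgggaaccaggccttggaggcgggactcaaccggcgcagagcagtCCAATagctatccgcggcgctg
Mcm6: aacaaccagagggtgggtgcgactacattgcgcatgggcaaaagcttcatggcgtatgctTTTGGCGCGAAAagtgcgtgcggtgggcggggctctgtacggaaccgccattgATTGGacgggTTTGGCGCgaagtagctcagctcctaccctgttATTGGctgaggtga
Mcm7: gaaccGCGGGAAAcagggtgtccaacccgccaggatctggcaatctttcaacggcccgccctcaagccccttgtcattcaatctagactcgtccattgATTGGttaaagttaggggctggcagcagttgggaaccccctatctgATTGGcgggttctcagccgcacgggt
Cdc6: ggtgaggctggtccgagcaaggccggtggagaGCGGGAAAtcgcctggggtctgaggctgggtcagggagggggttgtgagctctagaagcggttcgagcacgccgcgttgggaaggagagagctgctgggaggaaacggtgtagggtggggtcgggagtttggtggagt
Cdk1: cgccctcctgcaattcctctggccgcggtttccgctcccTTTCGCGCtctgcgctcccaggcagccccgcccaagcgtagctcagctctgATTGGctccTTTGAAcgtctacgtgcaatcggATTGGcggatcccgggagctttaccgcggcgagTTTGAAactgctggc
Top2a: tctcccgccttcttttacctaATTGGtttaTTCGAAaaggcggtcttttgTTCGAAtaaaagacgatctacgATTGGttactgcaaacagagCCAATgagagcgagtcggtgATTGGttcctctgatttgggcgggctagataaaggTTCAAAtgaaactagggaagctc

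Over the 250 bases before the start, an E2F type match was found in 10 of the 36 replication genes that had a promoter in the table (27.8%), in 1 of 34 mitosis genes (2.94%, Cdk1), in 480 of 27025 genes with a promoter (1.78%) and in 3.22% of the genes tested that had one. CCAAT together with a CHR type match was found in 12 of the 34 mitosis genes (35.3%), 6 of the 36 replication genes (16.7%) and 7.0% of all genes with a promoter. CCAAT alone is common, at 73.5% of the mitosis genes, 61.1% of the replication genes and 37.5% of all. These are matches of letters, and binding was not measured.

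**Figure D3:**
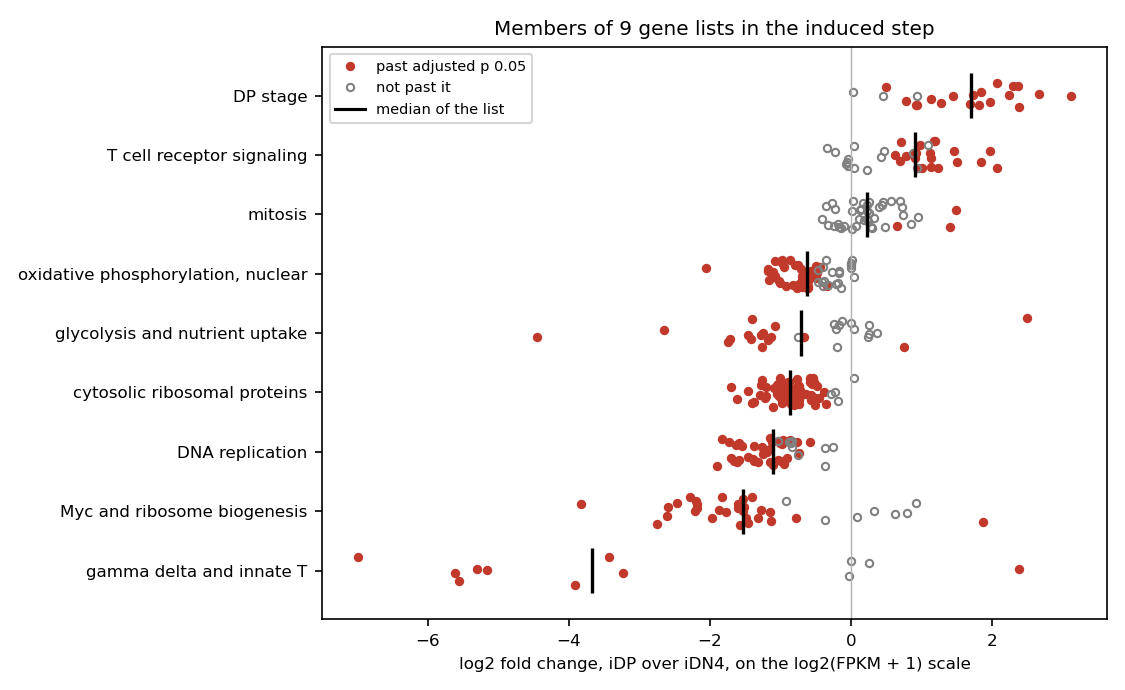
Log2 fold change of iDP over iDN4 (horizontal axis, on the log2(FPKM + 1) scale) for each tested member of 9 gene lists; red points passed an adjusted p of 0.05, open points did not, and black bars are list medians. The double positive stage genes lie to the right (median 1.70), mitosis genes around 0.22, DNA replication genes to the left (median -1.11), and gamma delta genes furthest left (median -3.68).

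Of 30 genes of G1 and cycle exit, 10 rose, 4 fell and 16 were not called, with a median log2 fold change of 0.21. Ccnd2, cyclin D2, had 0.393, 0 and 0 FPKM in iDP libraries, against 15.2, 19.8, 14.6 and 22 FPKM in iDN4 libraries. Its relative Ccnd3, cyclin D3, went the other way, with 551, 622 and 486 FPKM in iDP, against 213, 171, 221 and 186 FPKM in iDN4. Neither gene's groups overlapped, and the log2 fold changes were -4.06 ± 0.26 (SE, limma adjusted p = 4.52e-19) and 1.48 ± 0.25 (SE, limma adjusted p = 6.40e-06). Cdk4, the kinase that both cyclins drive, had 287, 214 and 233 FPKM in iDP, against 999, 998, 1025 and 1025 FPKM in iDN4, a log2 fold change of -2.05 ± 0.14 (SE, limma adjusted p = 2.82e-17). Cdkn1b, which encodes the inhibitor p27, rose, with 13.6, 17 and 25.7 FPKM in iDP, against 1.36, 2.29, 2.96 and 3.22 FPKM in iDN4 and a log2 fold change of 2.50 ± 0.32 (SE, limma adjusted p = 1.05e-08). Btg1, Btg2, Ccng2 and Pdcd4, genes linked to rest from division, rose by 1.84, 1.80, 1.93 and 2.17, and Rb1 and Rbl2, which restrain E2F factors, by 1.01 and 1.08.

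Most genes of the growth lists below fell. Myc, which drives ribosome and metabolic genes, had 17.9, 5.21 and 11.4 FPKM in iDP libraries, against 75.3, 76.8, 71 and 53.5 FPKM in iDN4 libraries, and its antagonist Mxd4 had 67.3, 67 and 69.3 FPKM in iDP, against 15.8, 18.9, 20.8 and 16.6 FPKM in iDN4. The 2 groups did not overlap for either gene. Myc fell by 2.62 ± 0.33 (SE, limma adjusted p = 8.72e-09), and Mxd4 rose by 1.86 ± 0.21 (SE, limma adjusted p = 4.02e-10). Of the 36 genes of the Myc and ribosome biogenesis list, Mxd4 was the only one that rose and 28 fell, with a median log2 fold change of -1.54. Npm1, a chaperone of the nucleolus, was at 749.6, 797 and 706 FPKM in iDP and 3368, 3458, 3331 and 3470 FPKM in iDN4 and fell by 2.18 ± 0.12 (SE, limma adjusted p = 1.88e-22). Srm, which makes spermidine, had 8.36, 9.7 and 11.6 FPKM in iDP, against 145, 156, 150.2 and 162 FPKM in iDN4, and Fbl, the methylase of ribosomal RNA, fell by 2.28.

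Of 78 ribosomal protein genes 74 fell and none rose, with a median of -0.86, but under quantile normalization 45 fell and 5 rose. Rps2 had 799, 703 and 691 FPKM in iDP libraries, against 2501, 2354, 2396 and 2301 FPKM in iDN4 libraries, the lowest fold change of the list (-1.71), and Rpl7 had 2263, 1945 and 1818 FPKM in iDP, against 2502, 2616, 2590 and 2552 FPKM in iDN4, the smallest fall that was called (-0.36). Under quantile normalization Rpl7 was called higher, at 0.30, and 13 of the 74 genes that had fallen changed sign. Of 63 nuclear genes of oxidative phosphorylation 44 fell and none rose (median -0.62), while under quantile normalization 31 fell and 2 rose. Atp5g1, a subunit of the ATP synthase ring, fell most of these, with 110.3, 116 and 93.5 FPKM in iDP, against 450.4, 404, 488 and 451 FPKM in iDN4. With equal totals, 27 fell.

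Of 28 genes of glycolysis and nutrient uptake, 14 fell and 2 rose. Hk2, the hexokinase of growing cells, had 0.127, 0 and 0.206 FPKM in iDP libraries, against 22.7, 24.4, 20.03 and 25.9 FPKM in iDN4 libraries. The lactate dehydrogenase genes moved apart: Ldha had 475, 542 and 376 FPKM in iDP, against 1185, 1070, 1362 and 1310 FPKM in iDN4, and Ldhb had 168, 245 and 101 FPKM in iDP, against 26.9, 22.6, 37.5 and 26.2 FPKM in iDN4. None of these 3 genes overlapped between the groups. Hk2 fell by 4.45 ± 0.52 (SE, limma adjusted p = 8.06e-10), Ldha fell by 1.42 ± 0.15 (SE, limma adjusted p = 3.79e-11), and Ldhb rose by 2.49 ± 0.32 (SE, limma adjusted p = 1.49e-08). Slc7a5, which imports leucine, and Tfrc, the transferrin receptor, fell by 2.65 and 1.46, while the glucose transporter Slc2a1, at 12.5, 4.8 and 3.55 FPKM in iDP, against 4.79, 5.51, 3.16 and 6.91 FPKM in iDN4, did not pass. In cholesterol synthesis 6 of 23 genes fell, with Sqle at 18.5, 12.2 and 14.2 FPKM in iDP, against 41.8, 44.8, 57.6 and 48.5 FPKM in iDN4.

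Within the Bcl-2 family of survival genes, members moved both ways. Beside the rise of Bcl2l1, Mcl1 had 139, 206 and 166 FPKM in iDP libraries, against 60.8, 67.9, 72.4 and 68.4 FPKM in iDN4 libraries, and Bcl2 had 2.16, 0.573 and 1.74 FPKM in iDP, against 5.42, 5.01, 4.96 and 6.77 FPKM in iDN4. Every iDP library was above every iDN4 library for Mcl1 and below for Bcl2, with log2 fold changes of 1.31 ± 0.17 (SE, limma adjusted p = 1.37e-08) and -1.45 ± 0.26 (SE, limma adjusted p = 1.30e-05). Fas, a death receptor, had 76.2, 86.3 and 99.8 FPKM in iDP, against 5.54, 10.6, 7.28 and 12.4 FPKM in iDN4, a log2 fold change of 3.20 ± 0.46 (SE, limma adjusted p = 1.51e-07). Bmf, which opposes Bcl-xL, and the ubiquitin ligases Birc2 and Birc3 rose by 1.17, 0.82 and 2.04. In all 6 of 25 genes rose and 1 fell. Of 20 targets of p53, 3 rose, Trp53inp1, Btg2 and Mdm2, a share of the list near that of all genes.

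Cytokine receptor genes also moved both ways. Il7r, the receptor that keeps early precursors alive, had 0.18, 0 and 0.0939 FPKM in iDP libraries, against 20.6, 35.9, 31.2 and 23.3 FPKM in iDN4 libraries, and Il4ra, the receptor chain for interleukin 4, had 28.7, 22.1 and 19.5 FPKM in iDP, against 0.757, 2.19, 0.762 and 1.67 FPKM in iDN4. The groups lay far apart for both, and the fold changes were -4.69 ± 0.24 (SE, limma adjusted p = 6.35e-23) and 3.41 ± 0.31 (SE, limma adjusted p = 3.91e-13). Socs1, an inhibitor of cytokine signals, rose by 1.89 ± 0.39 (SE, limma adjusted p = 1.98e-04), with 21.1, 19.4 and 10.5 FPKM in iDP, against 1.9, 4.41, 5.1 and 4.04 FPKM in iDN4, and Cish, a gene that such signals induce through STAT5, fell by 1.44 ± 0.34 (SE, limma adjusted p = 9.79e-04). Il6st (gp130) rose by 1.76. Of 27 genes 9 rose and 4 fell.

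Of 21 genes of class I antigen presentation, 11 fell and 3 rose. H2-K1, a classical class I chain, had 92.8, 104 and 70.0 FPKM in iDP libraries, against 286, 336, 342 and 298 FPKM in iDN4 libraries, and B2m, its light chain, had 1067, 1252 and 1285 FPKM in iDP, against 1964, 2231, 2358 and 2094 FPKM in iDN4. Both fell without overlap, with log2 fold changes of -1.83 ± 0.15 (SE, limma adjusted p = 2.09e-14) and -0.85 ± 0.10 (SE, limma adjusted p = 1.46e-09). Under quantile normalization the fold change of B2m was -0.29 and was not called (limma adjusted p = 0.113). Nlrc5, the activator of class I genes, fell by 1.47 ± 0.33 (SE, limma adjusted p = 6.17e-04). H2-Q6 and H2-Q7, close copies that may share reads, fell by 2.67 and 2.35. The exceptions that rose were Cd1d1, Tap2 and H2-T23, at 1.81, 1.08 and 1.07.

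Of 29 genes of homing and adhesion, 10 rose and 5 fell. S1pr1, the receptor for leaving the thymus, was listed at 0 in all 3 iDP libraries, against 6.18, 10.5, 11.5 and 7.38 FPKM in iDN4 libraries (limma adjusted p = 3.48e-09). Ccr9 had 339, 353 and 324 FPKM in iDP libraries, against 63.6, 80.1, 71.2 and 59.2 FPKM in iDN4 libraries and rose by 2.30 ± 0.30 (SE, limma adjusted p = 2.61e-08). Ccr7, which guides mature thymocytes, fell with overlapping values, at 3.84, 0 and 0.158 FPKM in iDP, against 4.37, 8.1, 3.59 and 6.27 FPKM in iDN4, and Itgal, the alpha chain of LFA-1, rose, with 182, 172 and 157 FPKM in iDP, against 83.1, 74.6, 76.6 and 68.1 FPKM in iDN4. In the Gimap family of lymphocyte GTPases 4 of 8 rose, led by Gimap6 (1.83), and Gimap4 alone fell (-3.46).

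Among 2484 genes that changed, averaged 5 FPKM or more in the higher group and stood apart between the groups, the 12 largest rises and 12 largest falls were taken. The rises, beside Cd4, Cd8a, Cd8b1 and Il4ra, were Slc6a19 and Slc7a11, transporters of neutral amino acids and of cystine, Gramd3, Spo11, the enzyme that breaks DNA in meiosis, F13a1, a subunit of clotting factor XIII, Rptoros, Chrna9, a nicotinic receptor subunit, and Tle6, of the Groucho family. Slc7a11 had 18.3, 18.3 and 17.4 FPKM in iDP libraries, against 0.342, 0.269, 0.0758 and 0.331 FPKM in iDN4 libraries, and Spo11 had 62.5, 142 and 121 FPKM in iDP, against 8.66, 7.01, 9.07 and 5.89 FPKM in iDN4. The log2 fold changes were 3.93 ± 0.26 (SE, limma adjusted p = 2.40e-18) and 3.60 ± 0.40 (SE, limma adjusted p = 2.06e-10), and Slc6a19, Gramd3, F13a1, Chrna9 and Tle6 rose by 3.41 to 4.88. Rptoros, whose name places it on the strand opposite Rptor, was listed at 0 in all iDN4 libraries, against 11.8, 11.8 and 8.49 FPKM in iDP. The sources used here do not say whether counting used the strand, so its reads and those of Rptor cannot be told apart.

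The falls, beside the gamma constant genes, Cd163l1, Il7r, Hk2, Ccnd2 and Nkg7, were Plac8, S100a4, a calcium-binding protein, Rgs1, a regulator of chemokine receptor signals, and Cpa3, a protease best known from mast cells. Plac8 had 0, 0 and 0.332 FPKM in iDP libraries, against 363, 528, 425 and 412 FPKM in iDN4 libraries, a log2 fold change of -8.61 ± 0.32 (SE, limma adjusted p = 4.82e-30). S100a4 had 0.497, 0 and 0 FPKM in iDP, against 53.7, 48.5, 92.8 and 24.8 FPKM in iDN4. Rgs1 and Cpa3 were listed at 0 in all iDP libraries, against 21, 36.3, 26.1 and 18 FPKM for Rgs1 and 29.8, 25.3, 22.3 and 19.1 FPKM for Cpa3 in iDN4. All 4 genes were also low in natural DP, where Plac8 was at 6.29, 0.454, 2.27 and 0 FPKM, against 398, 532 and 533 FPKM in natural DN4.

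The induced step was then set against the natural one by a test of the difference of the 2 fold changes, (iDP over iDN4) minus (DP over DN4). Of 17416 genes 191 passed (1.1%), 87 with a higher (0.5%) and 104 with a lower fold change in the induced step (0.597%). With equal totals the split was 110 higher and 72 lower, and with the 4 groups fitted alone 27 genes passed. The count was 103 without replicate 2 of iDP, and 113 and 106 without replicate 2 and without replicate 3 of natural DN4. A gene that did not pass is not thereby shown to behave alike in both. Of 793 distinct list members, 11 passed: Cd4 and Cxcr3 with a higher, and Cd69, Fos, Junb, Ier2, Dusp1, Hspa1b, Pdk1, Uqcrfs1 and Hmgb1 with a lower fold change in the induced step. The calls of Pdk1, Uqcrfs1 and Hmgb1 were lost under 16, 3 and 1 of the alternatives.

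Cd69 is an early activation marker of thymocytes under selection, and its call held under all alternatives and left-out libraries. It had 24.6, 32.9 and 18.4 FPKM in iDP libraries, against 67.1, 88, 73.7 and 87.4 FPKM in iDN4 libraries, a log2 fold change of -1.63 ± 0.34 (SE, limma adjusted p = 2.07e-04). In natural cells it had 81.1, 105, 204 and 186 FPKM in DP, against 42, 33.9 and 39.8 FPKM in DN4, a log2 fold change of 1.78 ± 0.34 (SE, limma adjusted p = 4.29e-05). The groups did not overlap within either source, and the 2 sources went opposite ways, with a difference of -3.41 ± 0.48 (SE, limma adjusted p = 7.00e-06).

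Of 21 immediate early and stress genes, 5 had a lower fold change in the induced step, with a median difference of -0.95 against 0 over all genes. Fos, a subunit of the AP-1 factor, had 171, 65.7 and 188 FPKM in iDP libraries, against 284, 222, 305 and 259 FPKM in iDN4 libraries and, in natural cells, 311, 332, 412 and 404 FPKM in DP, against 124, 159 and 186 FPKM in DN4. It fell by 1.04 ± 0.28 (SE, limma adjusted p = 0.00468) in the induced step and rose by 1.23 ± 0.28 (SE, limma adjusted p = 5.92e-04) in the natural one, with a difference of -2.27 ± 0.40 (SE, limma adjusted p = 6.17e-04). Without replicate 2 of iDP the fall in the induced step was not called (adjusted p = 0.223). Dusp1, a phosphatase of MAP kinases, had 91.2, 48.9 and 65.8 FPKM in iDP, against 79.9, 67.3, 88.4 and 66.5 FPKM in iDN4, which overlap, and in natural cells 180.5, 199.9, 201 and 162 FPKM in DP, against 41.8, 62.2 and 66.1 FPKM in DN4, which do not. Its difference was -1.89 ± 0.35 (SE, limma adjusted p = 0.00155). Junb and Ier2 passed at adjusted p of 0.0286 and 0.0349, and their calls were lost under 9 and 13 of the alternatives. Hspa1b, a heat shock protein with a near-identical copy in Hspa1a, was above 1 FPKM in all induced and no natural libraries of these 4 groups, with 1.25, 2.22 and 2.35 FPKM in iDP, against 9.1, 8.01, 11.9 and 12.5 FPKM in iDN4. Its highest value in the natural libraries was 0.346 FPKM. The call of Hspa1b in the difference was lost under 4 of the alternatives, with a limma adjusted p of 0.654 for a pseudocount of 0.1. Between 2 and 6 of the 21 passed under the alternatives, with 2 when the 4 groups were fitted alone.

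**Figure D4:**
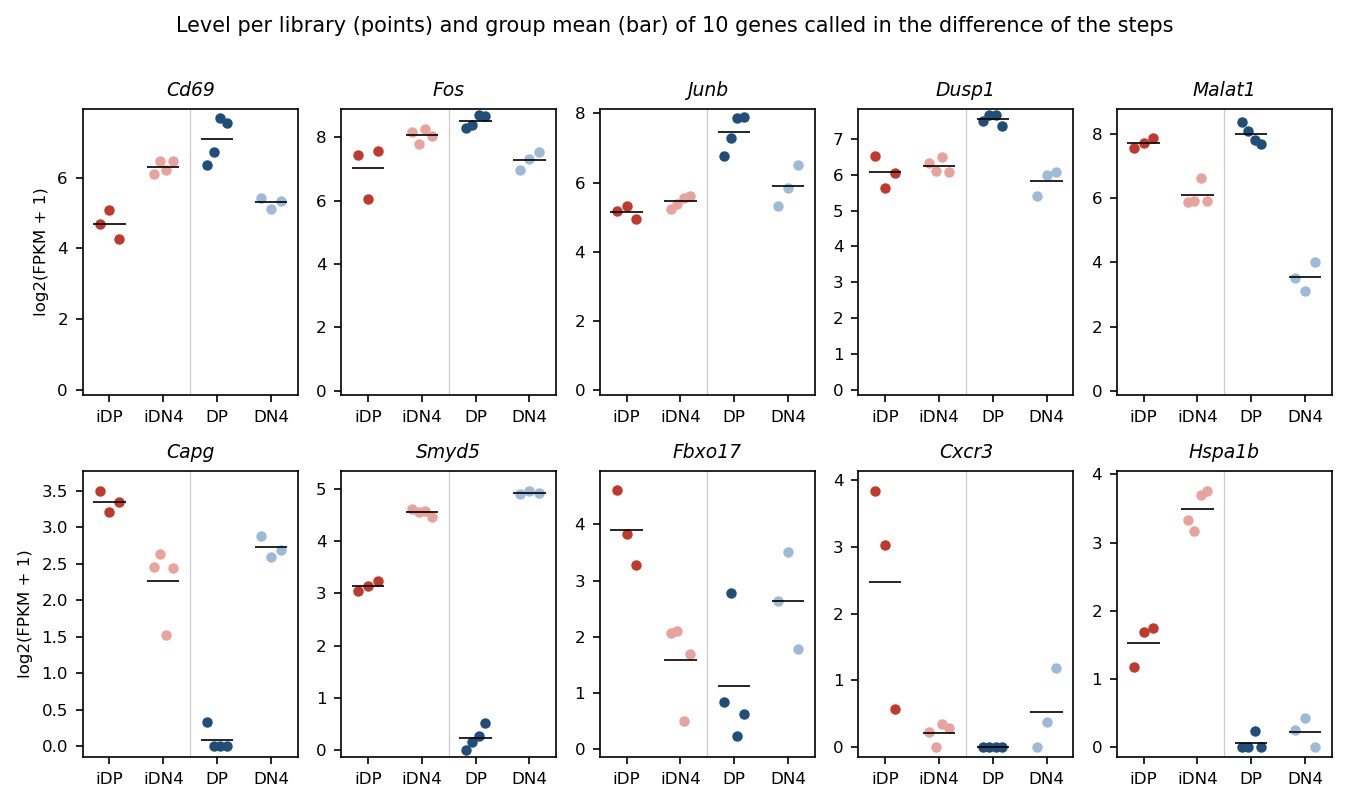
FPKM per library, as log2(FPKM + 1) on the vertical axis, of 10 genes whose fold change differed between the steps, in iDP, iDN4, natural DP and natural DN4; points are libraries and bars are group means. Cd69 and Fos are lower in iDP than in iDN4 and higher in natural DP than in natural DN4, while Capg and Fbxo17 show the reverse.

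Among the genes taken by rule from this test, Malat1, an abundant nuclear noncoding RNA, rose in both sources but by less in the induced one. It had 191, 209 and 235 FPKM in iDP libraries, against 58.3, 59.2, 98.2 and 59.5 FPKM in iDN4 libraries and, in natural cells, 331, 271, 224 and 205 FPKM in DP, against 10.5, 7.61 and 15.1 FPKM in DN4. The 3 natural DN4 libraries were the low ones, below all 4 iDN4 libraries, and the difference was -2.81 ± 0.62 (SE, limma adjusted p = 0.00956). Klf4 and Nr4a2, transcription factors that are also induced early by signals, had differences of -2.65 ± 0.57 (SE, limma adjusted p = 0.00744) and -2.61 ± 0.68 (SE, limma adjusted p = 0.0359). Lat2, an adaptor of B and mast cells, Btg3, of the antiproliferative BTG family, and Fn3k, a kinase that removes sugars from proteins, had differences of -2.26, -2.25 and -2.24. The calls of Nr4a2, Lat2, Btg3 and Fn3k were lost under 13, 16, 4 and 15 of the alternatives, and that of Klf4 under 1.

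Capg, which caps actin filaments, and Fbxo17, of the F-box family, rose in the induced step and fell in the natural one. Capg had 10.3, 8.24 and 9.15 FPKM in iDP libraries, against 4.48, 5.18, 1.88 and 4.43 FPKM in iDN4 libraries and, in natural cells, 0.258, 0, 0 and 0 FPKM in DP, against 6.4, 5.06 and 5.48 FPKM in DN4, with a difference of 3.73 ± 0.48 (SE, limma adjusted p = 4.96e-07). Fbxo17 had 23.4, 13.2 and 8.66 FPKM in iDP, against 3.21, 3.3, 0.409 and 2.25 FPKM in iDN4 and, in natural cells, 0.784, 5.85, 0.173 and 0.543 FPKM in DP, against 5.2, 10.3 and 2.44 FPKM in DN4, with a difference of 3.83 ± 0.63 (SE, limma adjusted p = 1.62e-04). The natural values of Fbxo17 overlap, and the call of its difference was lost with only the 4 groups fitted (limma adjusted p = 0.0987). The rise of Capg in the induced step was not called without replicate 3 of iDN4 or without replicate 1 of iDP (limma adjusted p of 0.0933 and 0.0601). Smyd5, of the SMYD methyltransferase family, fell in both, to 7.26, 7.78 and 8.41 FPKM in iDP, against 23.7, 22.8, 23.1 and 21.2 FPKM in iDN4, and to 0, 0.102, 0.204 and 0.426 FPKM in natural DP, against 28.9, 30.2 and 29.4 FPKM in natural DN4. Its fold changes were -1.43 in the induced and -4.70 in the natural step. Dnase1l1, Plod3, Sh3gl3 and Oas1c differed by 3.77, 2.88, 2.81 and 2.70, and the calls of Plod3, Sh3gl3 and Oas1c were lost under 8, 4 and 13 of the alternatives. Cxcr3, a chemokine receptor of activated T cells, had 13.2, 7.14 and 0.487 FPKM in iDP, against 0.178, 0, 0.273 and 0.222 FPKM in iDN4, so that 2 of the 3 iDP libraries carried its difference of 2.78 ± 0.74 (SE, limma adjusted p = 0.0409). Its call was lost under 14 of the alternatives.

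Cd4 itself rose in both sources and more in the induced one. Natural cells had 73.5, 95.8, 92 and 70.2 FPKM in DP, against 1.38, 2.32 and 0.8289 FPKM in DN4. All 4 natural DP libraries lay below all 3 iDP libraries, and the difference was 1.22 ± 0.32 (SE, limma adjusted p = 0.0355). That call was lost under 13 of the alternatives, with adjusted p of 0.0522 to 0.548. Hoxb5 passed with a difference of 0.88 ± 0.24 (SE, limma adjusted p = 0.0469), and its call was lost under 16. Of the other lists described here, none besides those of the 11 genes above had a member that passed: 0 of 44 replication genes, 0 of 41 mitosis genes, 0 of 78 ribosomal protein genes and 0 of 22 double positive stage genes by limma, with unadjusted p under 0.05 for 5, 2, 6 and 1 of them and medians of the difference of -0.13, -0.41, -0.04 and -0.05 on the log2 scale.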

How the data were processed

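PolyA RNA was measured in 76 libraries of 1000 sorted cells each, reverse transcribed and prepared with Nextera XT, per the labels' protocols. The authors deposited FPKM, made with bcl2fastq, TopHat, Cufflinks 2.2.1 and Cuffnorm on NCBIM37, per the submitters' processing notes. Parameters and annotation are not given in the sources used here. Symbols come from GENCODE vM21 (GRCm38) and matched 32916 of 37980 gene IDs (86.7%). One library identical to another was left out.

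A pseudocount of 1 was added to FPKM before taking log2. A gene was tested if 2 or more libraries reached 1 FPKM, and 1 mean per group was fitted over 75 libraries and 24 groups with limma 3.58.1 in R 4.3.3 (trend and robust settings), two-sided, with Benjamini-Hochberg adjustment. FPKM is no count, so no count test was run. The fit was tested on simulated data. Alternatives were a pseudocount of 0.1, no filter, a filter of 5 FPKM in 3 libraries, equal totals, quantile normalization, library weights, a replicate block, only the groups compared, and each library left out. Single values per library were compared by exact permutation, and summaries and figures were made in Python 3.11.15.

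Genes named by rule were the 12 highest and 12 lowest fold changes of the induced step and the 8 highest and 8 lowest of the difference, among called genes whose higher group averaged 5 FPKM or more and whose iDP and iDN4 values stood apart, without receptor segments, pseudogenes, small RNAs and predicted genes; Hoxb5 and list members were added. The members, lists and tests were chosen with earlier results of these data known, and which list members are given as examples was decided with their values in view. Values of some list members are not reported here.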

Additional observations from a re-analysis of the deposited data

Results flagged for a closer look

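In groups of 4 libraries, 1 library stood apart from the other 3 for 14 of 82 gene and group pairs checked among the genes named by rule and Hoxb5, by a 95% critical value that chance passes in about 1 in 20 groups of values with even spread. Several of the 14 are values near 0 beside zeros, to which that share may not apply. In natural DP the library apart was the highest for Rptoros (87.9 FPKM), Nkg7 (11.6), Oas1c (10.1), Tcrg-C4 (7.77), Fbxo17 (5.85), Hk2 (3.71), Rgs1 (3.40), Sh3gl3 (2.29), S100a4 (0.884), Capg (0.258), Hoxb5 (0.0891) and Cd163l1 (0.0803), and the lowest for Slc7a11 (9.17). The other 3 DP libraries were at 3.34 to 6.38 FPKM for Rptoros, at most 0.134 for Oas1c, at most 0.784 for Fbxo17 and listed at 0 for Sh3gl3. Replicate 1 of natural DP was the highest for Rptoros, Nkg7, Oas1c, Rgs1, Sh3gl3, Capg and Cd163l1. Replicate 4 was so for Tcrg-C4, replicate 2 for Fbxo17 and Hk2, and replicate 3 for S100a4. Replicate 1 also had 7 Igkv segments above 0, summing to 34.45 FPKM, against at most 1 segment in each other natural DP library. In iDN4 the highest library stood apart for Malat1 (98.2 FPKM).

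The fold change differed between the induced and the natural step, by limma's test of the difference, for genes that rose more or fell less in the induced step: Fbxo17 (3.83), Dnase1l1 (3.77), Capg (3.73), Smyd5 (3.27), Plod3 (2.88), Sh3gl3 (2.81), Cxcr3 (2.78), Oas1c (2.70), Cd4 (1.22) and Hoxb5 (0.88), as log2 differences. It was lower in the induced step for Cd69 (-3.41), Malat1 (-2.81), Klf4 (-2.65), Nr4a2 (-2.61), Fos (-2.27), Lat2 (-2.26), Btg3 (-2.25) and Fn3k (-2.24). Sex, transplantation, transduction and the estimated fragments per FPKM go with the induced or natural source of the libraries and cannot be told apart here.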

How the results depend on the processing

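The number of genes changed in the induced step stayed between 2788 and 3924 under all alternatives. In the natural step it was 2649 when only its groups were fitted. In the difference of steps it was 27 with only the 4 groups in the fit and between 103 and 251 with 1 library left out. Of 404 genes named by rule or called in a list, 118 lost their call under at least 1 alternative, 51 under quantile normalization, 46 with equal totals and 35 with a pseudocount of 0.1. Of 25 such genes in the difference, 18 did.

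Counts that moved were recombination genes higher (3 with a pseudocount of 0.1, 3 to 6 with a library left out), receptor complex genes higher (0 with that pseudocount), mitosis genes higher (1 with that pseudocount, 6 with equal totals, 6 with only the groups fitted, 1 to 4 with a library left out), ribosomal protein genes lower (45 under quantile normalization), oxidative phosphorylation genes lower (27 with equal totals) and immediate early genes lower in the difference (2 with only the groups fitted, 3 to 6 with a library left out). Rpl7 changed sign under quantile normalization (0.30). The cause was not tested.

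Replicate numbers gave no sign of pairing between groups. Deviations of same-numbered libraries from their group means correlated at -0.0121 to 0.0126, and those of differently numbered ones at -0.0419 to 0.0581. Such values cannot show that no libraries share an animal or recipient. With a replicate block, 3375 genes changed in the induced step (3272 shared with the fit without it), 4256 in the natural step and 164 in the difference. Depth limits genes near 1 FPKM, and FPKM without counts gives no floor for a value of 0.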
